A study of Homo sapiens with 5 samples.

Results

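The 10 genes described here are core genes of the mTOR pathway together with LARP1. They were chosen by name as the kinase MTOR, its partners RPTOR, RICTOR and MLST8, the regulators AKT1, TSC1, TSC2 and RHEB, the substrate kinase RPS6KB1 and the mRNA-binding protein LARP1. All 10 were among the 17297 genes of the count table, and all 10 were among the 11991 genes that passed the filter on low counts and were tested. Ribosome-protected fragments, the pieces of mRNA that ribosomes shield from nuclease, were counted per gene in HCT116, a cell line from a human colorectal cancer. The MUT group, with 3 libraries, was HCT116 carrying on both alleles the N106S change (asparagine to serine) in eIF6, introduced with CRISPR/Cas9. eIF6 holds the large ribosomal subunit apart from the small one. The WT group, with 2 libraries, was unedited HCT116. Both groups were grown in serum-containing medium and no drug is named, so mTOR was neither inhibited nor starved of growth factors by design. The edited cells came from clones, and the labels do not say how many clones or separate cultures stand behind the libraries. The spread behind each p-value is thus that of the libraries alone and could be purely technical.

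mTOR is a protein kinase that couples growth factors, amino acids and energy to growth. With RPTOR and MLST8 it forms mTORC1, which phosphorylates S6 kinase and the 4E-BP proteins and so promotes translation. With RICTOR and MLST8 it forms mTORC2, which phosphorylates AKT. AKT in turn inhibits the TSC1 and TSC2 complex, a brake on the small GTPase RHEB, which activates mTORC1 at the lysosome. LARP1 is phosphorylated by mTORC1 and binds the cap and first bases of TOP mRNAs, those that start with a C and a run of pyrimidines (5′ terminal oligopyrimidine). Most mRNAs of ribosomal proteins are of this kind. The activity of these proteins is set largely by phosphorylation and position in the cell, which footprint counts do not measure.

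To set LARP1's kind of target beside the genes, the bases around annotated transcript starts are shown for MTOR and the called members except MLST8. They are also shown for 4 of the TOP mRNAs named below whose footprints fell. RPL23A, PABPC1, RPS6, EEF1A1, RPL12 and RPL37, which are named and fell too, are not shown. All 4 shown start with a C and 4 pyrimidines, which not all TOP mRNAs did. Each run holds 10 bases before and 20 after the start, 5′ to 3′ on the gene's own strand, from RefSeq on GRCh38.p14. The capitals mark the first 5 transcribed bases.
LARP1, chr5:154682969-154682998, plus strand: ctccgccgccAGAGGctgagtcatcgctgc
MTOR, chr1:11262532-11262561, minus strand: tccttccctcGCTCCcggcttagaggacag
RPTOR, chr17:80544828-80544857, plus strand: tgcattctggGTCCTggcaatatggcgtcc
AKT1, chr14:104795729-104795758, minus strand: gcgggccggcGGCGGcggcaggaccgagcg
RHEB, chr7:151519876-151519905, minus strand: ggaagaaggtGGGAGggtcatgacgcagcg
RPS3A, chr4:151099618-151099647, plus strand: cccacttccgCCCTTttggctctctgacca
RPL39, chrX:119791611-119791640, minus strand: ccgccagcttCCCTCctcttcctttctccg
NAP1L1, chr12:76084666-76084695, minus strand: gctcttgggtCTTTTttagcgccatctgct
EIF4B, chr12:53006446-53006475, plus strand: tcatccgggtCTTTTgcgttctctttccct

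Start sequences were given for 9 of the 10 genes (not MLST8). A C followed by 4 pyrimidines, read from the first transcribed base on the gene's strand, was present in 0 of these 9. It was present in 51 of 74 TOP mRNAs with an entry and in 5.4% of the 9764 tested genes with one. With the same motif sought anywhere from 5 bases before the start to the 10th base after it, 2 of the 9 held it, against 22.9% of tested genes. These matches describe 1 annotated start per gene, and other starts were not examined.

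The libraries held 3076137, 3755991 and 3821176 counts in MUT replicates 1, 2 and 3, and 2095217 and 3128144 in WT replicates 1 and 2. Counts were scaled between libraries, so every value below is relative to the other genes. Levels are given as CPM, footprint counts per 1e+06 scaled counts of the library. Of 9 colon epithelial markers, 7 averaged at least 1 CPM, with VIL1 and LGR5 below it. Summed, the 9 stood at 1162 to 1469 CPM in MUT and 1092 to 1187 CPM in WT. Fibroblast, leukocyte, endothelial and liver markers each summed to at most 9.23 CPM in any library. EIF6, the edited gene, had 148.6, 169 and 154 CPM in the MUT libraries, against 184 and 171 CPM in the WT libraries (log2 fold change -0.17, SE 0.0971, edgeR adjusted p = 0.215). A substitution need not alter a count, so this does not check the labels.

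Of the 10 genes, 4 rose (RPTOR, MLST8, AKT1 and LARP1), 1 fell (RHEB) and 5 did not pass edgeR's quasi-likelihood test at an adjusted p under 0.05. Among all genes tested, 10.0% were called higher, 12.9% lower and 22.9% in either direction. The median log2 fold change (MUT over WT) was 0.26 over the 10 genes and 0.0024 over all genes tested. The 10 genes lay in denser regions, with a median of 34 protein-coding genes within 1 Mb, against 22 over all tested genes, and with the trend of density and gene span removed from each library their median was 0.123, against -0.0254 over all genes. All MUT libraries lay on one side of all WT libraries for 8 of the 10, 7 of them higher in MUT. That was so for 50.7% of all tested genes, 25.4% in the higher direction and 25.3% in the lower. Summed, the 10 genes took 1168 ± 31.5 CPM in MUT (SD, n = 3) and 1033 ± 37.1 CPM in WT (SD, n = 2). RNA-seq was not analysed here, so more mRNA and more ribosomes per mRNA cannot be told apart.

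**Figure D1:**
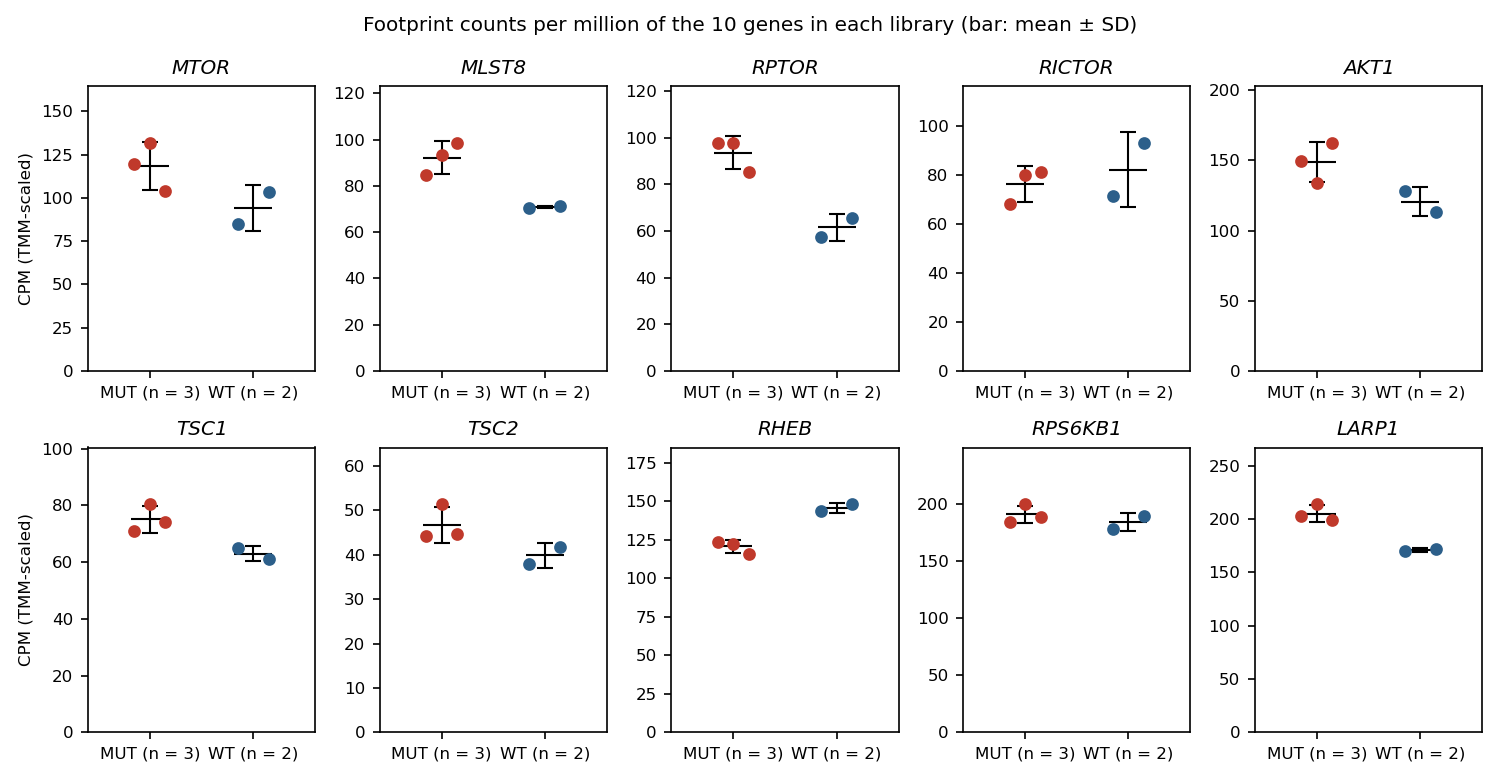
Footprint levels (TMM-scaled CPM, vertical axis from 0) of the 10 genes in each library, MUT in red and WT in blue, with the mean and SD as black bars. RPTOR, MLST8, AKT1, TSC1, TSC2, MTOR and LARP1 lie higher in all 3 MUT libraries than in both WT libraries, RHEB lies lower, and RICTOR and RPS6KB1 overlap.

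RPTOR encodes raptor, the scaffold that defines mTORC1 and recruits its substrates, and it had the largest change of the 10. The gene (ID 57521, chromosome 17, 80544838 to 80966368) had 97.7, 97.7 and 85.4 CPM in the MUT libraries, against 57.4 and 65.7 CPM in the WT libraries. The lowest MUT library was well above the highest WT library. This was a 1.51-fold rise, with a log2 fold change of 0.59 (SE 0.122, 95% interval 0.34 to 0.84) and an edgeR adjusted p of 0.00125. Among all tested genes, 92.3% ranked at or below that fold change. It was the only one of the 10 called in all 15 alternative fits, where its log2 fold change ran from 0.46 to 0.71 and its adjusted p reached 0.0316 without WT replicate 1.

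RICTOR encodes rictor, the scaffold that defines mTORC2. The gene (ID 253260, chromosome 5, 38937920 to 39074399) had 68.1, 80.05 and 81.3 CPM in the MUT libraries, against 71.4 and 93.2 CPM in the WT libraries. The groups overlapped, and the WT libraries lay further apart than the MUT libraries did. The log2 fold change was -0.12 (SE 0.127, 95% interval -0.38 to 0.14, edgeR adjusted p = 0.522), so a fall of the size of its interval's lower end is within the error. It was 0.11 without WT replicate 2, the higher of the WT libraries. The bounds of RICTOR overlap those of OSMR, a cytokine receptor gene that is also in the table.

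The balance of the scaffolds was also taken within each library, where scaling between libraries cancels. A trend in gene density and span does not cancel, and it was not removed from the ratios. RPTOR had 37 protein-coding genes within 1 Mb and a span of 421531 bases, against 7 and 136480 for RICTOR. The log2 ratio of RPTOR to RICTOR counts was 0.52, 0.29 and 0.07 in the MUT libraries and -0.31 and -0.50 in the WT libraries, without overlap. The means differed by 0.70 (0.29 ± 0.22 in MUT, SD, n = 3, and -0.41 ± 0.13 in WT, SD, n = 2). By an exact permutation test, two-sided, p was 0.1, which is the minimum for 3 against 2 libraries, or 0.4 after Benjamini-Hochberg adjustment over 4 ratios. Leaving out single libraries gave differences from 0.59 to 0.81.

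MTOR and MLST8 encode the subunits that both complexes share. MTOR, the kinase (ID 2475, chromosome 1, 11106535 to 11262551), had 119.6, 132 and 104 CPM in the MUT libraries, against 84.9 and 103.3 CPM in the WT libraries. The groups only just failed to overlap, between MUT replicate 3 and WT replicate 2. The log2 fold change of 0.32 (SE 0.118, 95% interval 0.07 to 0.56) missed the threshold, with an edgeR adjusted p of 0.0538. It passed in 6 of 15 alternative fits, for example at 0.0208 when scaled by library size only and at 0.0178 without MUT replicate 3, and stood at 0.394 without WT replicate 1.

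MLST8, a small subunit that binds and stabilises the kinase domain (ID 64223, chromosome 16, 2205454 to 2209453), had 84.6, 93.5 and 98.5 CPM in the MUT libraries, against 70.4 and 71.3 CPM in the WT libraries. It was 1.30-fold higher, with a log2 fold change of 0.38 (SE 0.117, edgeR adjusted p = 0.0199). MLST8 lies in one of the most gene-dense neighbourhoods among the 10, with 96 protein-coding genes centred within 1 Mb of it, against a median of 22 over all tested genes. With the trend of gene density and gene span removed from each library, its log2 fold change was 0.05 (adjusted p = 0.799). Leaving out WT replicate 1 (0.0956), WT replicate 2 (0.117) or MUT replicate 3 (0.0577) ended the call too, as did DESeq2 (0.0995).

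AKT1, the kinase that carries the growth factor signal to mTORC1 and is itself phosphorylated by mTORC2, rose 1.24-fold. The gene (ID 207, chromosome 14, 104769349 to 104795748) had 149.5, 134 and 162 CPM in the MUT libraries, against 128 and 113 CPM in the WT libraries. MUT replicate 2 and WT replicate 1 were close. The log2 fold change was 0.31 (SE 0.107, edgeR adjusted p = 0.0364). The call ended without WT replicate 1 (0.0568), WT replicate 2 (0.321), MUT replicate 1 (0.104) or MUT replicate 3 (0.118), and with DESeq2 (0.125), thinned libraries (0.058) or the density and span trend removed (0.0688). Its paralog AKT2 had a log2 fold change of 0.28 that did not pass (adjusted p = 0.0995). The log2 ratio of AKT1 to AKT2 counts averaged 0.48 ± 0.15 in MUT (SD, n = 3) and 0.45 ± 0.09 in WT (SD, n = 2). That difference of 0.036 had an exact permutation p of 0.9 and turned negative without WT replicate 1 (-0.026) or MUT replicate 3 (-0.0405).

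The TSC genes, which encode hamartin (TSC1) and the GTPase-activating subunit tuberin (TSC2), did not pass. TSC1 (ID 7248, chromosome 9, 132891349 to 132945378) had 70.9, 80.3 and 74.2 CPM in the MUT libraries, against 64.9 and 61.1 CPM in the WT libraries. Its log2 fold change was 0.26 (SE 0.122, 95% interval 0.0099 to 0.51, edgeR adjusted p = 0.124), and it passed only with library size only (0.049). Every MUT library was above both WT libraries, by a small margin. TSC2 (ID 7249, chromosome 16, 2047985 to 2089491) was the least counted of the 10, with 44.2, 51.3 and 44.6 CPM in the MUT libraries, against 38 and 41.9 CPM in the WT libraries. Its log2 fold change was 0.22 (SE 0.146, edgeR adjusted p = 0.290).

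TSC2 lies 116 kb from MLST8, also among many genes (95 within 1 Mb), and its bounds overlap those of PKD1. With that trend in density and span removed, its log2 fold change was -0.15 (adjusted p = 0.496). The log2 ratio of TSC2 to TSC1 was -0.68 ± 0.0434 in MUT (SD, n = 3) and -0.66 ± 0.16 in WT (SD, n = 2), a difference of -0.027 with an exact permutation p of 0.8. Without WT replicate 2 that difference was 0.0857. The difference was smaller than the SD of the WT libraries.

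RHEB, the GTPase that the TSC complex switches off, was the only one of the 10 called lower. The gene (ID 6009, chromosome 7, 151466012 to 151519895) had 124, 122 and 116 CPM in the MUT libraries, against 143 and 148 CPM in the WT libraries. The libraries of each group lay close together and the groups were apart. The fall was 1.21-fold, a log2 fold change of -0.27 (SE 0.0962, 95% interval -0.47 to -0.08, edgeR adjusted p = 0.0414). The direction held in all 15 alternative fits, from -0.37 to -0.20, but the call ended without any 1 library (adjusted p from 0.0775 without MUT replicate 2 to 0.222 without WT replicate 2). It also ended with upper-quartile scaling (0.086) and library size only (0.133), with DESeq2 (0.159), with thinned libraries (0.0761) and with no count filter (0.0791). With the density and span trend removed the fall was -0.37 (0.00786). RefSeq lists pseudogenes named RHEBP1, RHEBP2 and RHEBP3, and how reads shared with such copies were counted was not stated.

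RPS6KB1, the S6 kinase that mTORC1 phosphorylates, was the least changed. The gene (ID 6198, chromosome 17, 59893121 to 59950574) had 185, 199.9 and 189 CPM in the MUT libraries, against 179 and 189.96 CPM in the WT libraries. The groups overlapped. The log2 fold change was 0.05 (SE 0.0941, edgeR adjusted p = 0.746), and its 95% interval of -0.14 to 0.24 leaves room for changes of that size in either direction. The paralog RPS6KB2 had a log2 fold change of 0.30 that did not pass (adjusted p = 0.121). The log2 ratio of RPS6KB1 to RPS6KB2 was 1.62 ± 0.18 in MUT (SD, n = 3) and 1.85 ± 0.17 in WT (SD, n = 2). The exact permutation p for this pair was 0.6.

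LARP1 rose 1.20-fold. The gene (ID 23367, chromosome 5, 154682979 to 154817605) had 203, 214 and 199.1 CPM in the MUT libraries, against 169.8 and 172 CPM in the WT libraries. The WT libraries nearly coincided, and all MUT libraries were higher. The log2 fold change was 0.26 (SE 0.094, 95% interval 0.07 to 0.46, edgeR adjusted p = 0.0448). It stayed between 0.24 and 0.34 in the 15 alternative fits, and with the density and span trend removed it was 0.29 (0.0273). The call ended without WT replicate 1 (0.138), WT replicate 2 (0.138), MUT replicate 1 (0.108) or MUT replicate 2 (0.132), and with DESeq2 (0.109), thinned libraries (0.0952) or no count filter (0.0524).

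**Figure D2:**
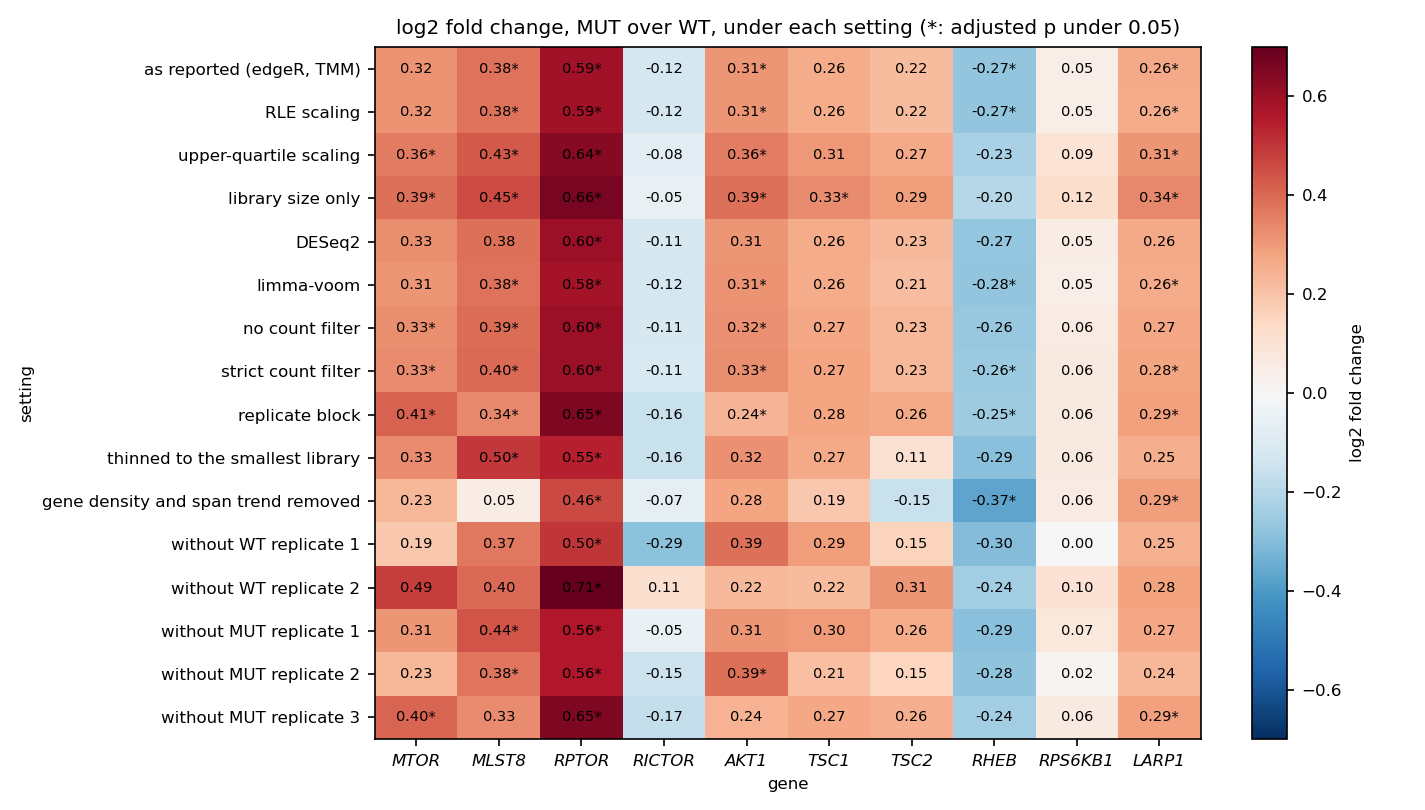
Log2 fold change (MUT over WT) of the 10 genes in columns, under the reported fit and each of 15 alternatives in rows. The colour runs from blue (lower in MUT) to red (higher in MUT), and a star marks an adjusted p under 0.05. RPTOR is starred in every row, MLST8 drops to 0.05 with the gene density and span trend removed, and RICTOR, TSC2 and RPS6KB1 carry no star.

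Of 8 other LARP family and poly(A)-binding protein genes, 0 were called higher and 3 lower, against 10.0% and 12.9% of all tested genes. With 8 genes, 0 called higher is near that share. Their median log2 fold change was -0.24 (0.0024 over all tested genes). All MUT libraries lay above both WT libraries for 1 of the 8 and below them for 5. Over all tested genes these shares were 25.4% and 25.3%. LARP1B, the closest paralog of LARP1, had 73.5, 71.1 and 69.3 CPM in the MUT libraries, against 97.4 and 103 CPM in the WT libraries. It was 1.41-fold lower, with an edgeR adjusted p of 0.00231, so the paralogs were called in opposite directions. The call on LARP1B ended without WT replicate 2 (0.057). SSB, the La protein that binds the ends of new RNA polymerase III transcripts, was 1.29-fold lower and PABPC1, the main cytoplasmic poly(A)-binding protein, 1.27-fold lower. SSB lost its call without WT replicate 2 (0.371), MUT replicate 1 (0.0688) or MUT replicate 3 (0.113), and PABPC1 without WT replicate 1 (0.263), MUT replicate 1 (0.126) or MUT replicate 2 (0.0943). Scaling by library size only ended the calls on SSB (0.0636) and PABPC1 (0.0559), and upper-quartile scaling (0.056) and removal of the trend (0.0772) that on PABPC1. DESeq2 ended that on SSB (0.0866).

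Of 95 TOP mRNAs, the kind that LARP1 binds, 50 fell and 45 did not pass, with a median log2 fold change of -0.32. Over all tested genes 12.9% were called lower. The 4 with the lowest p were RPL23A (1.70-fold lower), RPS3A (1.56-fold lower), RPL39 (1.53-fold lower) and the histone chaperone gene NAP1L1 (log2 fold change -0.58), and all 4 were called in all 15 alternative fits. RPS3A had 110.1, 100.6 and 103.4 CPM in the MUT libraries, against 162 and 164 CPM in the WT libraries. All MUT libraries lay below both WT libraries for 57 of the 95, against 25.3% of all tested genes. The count of 50 was not repeated under the alternative fits. RefSeq lists pseudogenes named after ribosomal protein genes too, such as RPL39P6, and how reads shared with them were counted was not stated. Some of the 50 were called although their groups overlapped. EEF1A1, named after its values were seen, had 758 and 448 CPM in WT replicates 1 and 2. Its MUT replicates 1, 2 and 3 had 459, 404 and 393 CPM. WT replicate 1 was also well above WT replicate 2 for RPL12 (632 and 413 CPM) and RPL37 (1254 and 780 CPM). Both were likewise named after their values were seen. For other TOP mRNAs, such as RPS3A, the WT libraries were close. The size of the fall thus depends on the WT library for part of the list. No test links the change in LARP1 to that of the TOP mRNAs.

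Beyond the 10, 97 other genes of the pathway were listed by role and 93 passed the count filter. Of these, 13 rose and 12 fell (26.9% called, against 22.9% of all tested genes), with a median log2 fold change of 0.04. The pathway lists as a whole were therefore called about as often as the genes at large. Among 7 other subunits and assembly factors of the mTOR complexes, 2 rose, where 10.0% of all tested genes were called higher. AKT1S1, which encodes the mTORC1 inhibitor PRAS40, had 125, 104.01 and 116 CPM in the MUT libraries, against 89.4 and 87.6 CPM in the WT libraries (edgeR adjusted p = 0.016). TELO2, part of the chaperone complex that matures mTOR, was 1.65-fold higher (0.0361). Both sit among many genes (87 and 98 within 1 Mb), and with the density and span trend removed their log2 fold changes were 0.08 (0.674) and 0.35 (0.344). Both calls also ended without WT replicate 1 (0.074 and 0.279) or MUT replicate 1 (0.0908 and 0.138), and that of AKT1S1 without WT replicate 2 (0.131) or with thinned libraries (0.0729). DESeq2 ended both (0.0742 and 0.150), and limma-voom that of TELO2 (0.0633).

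**Figure D3:**
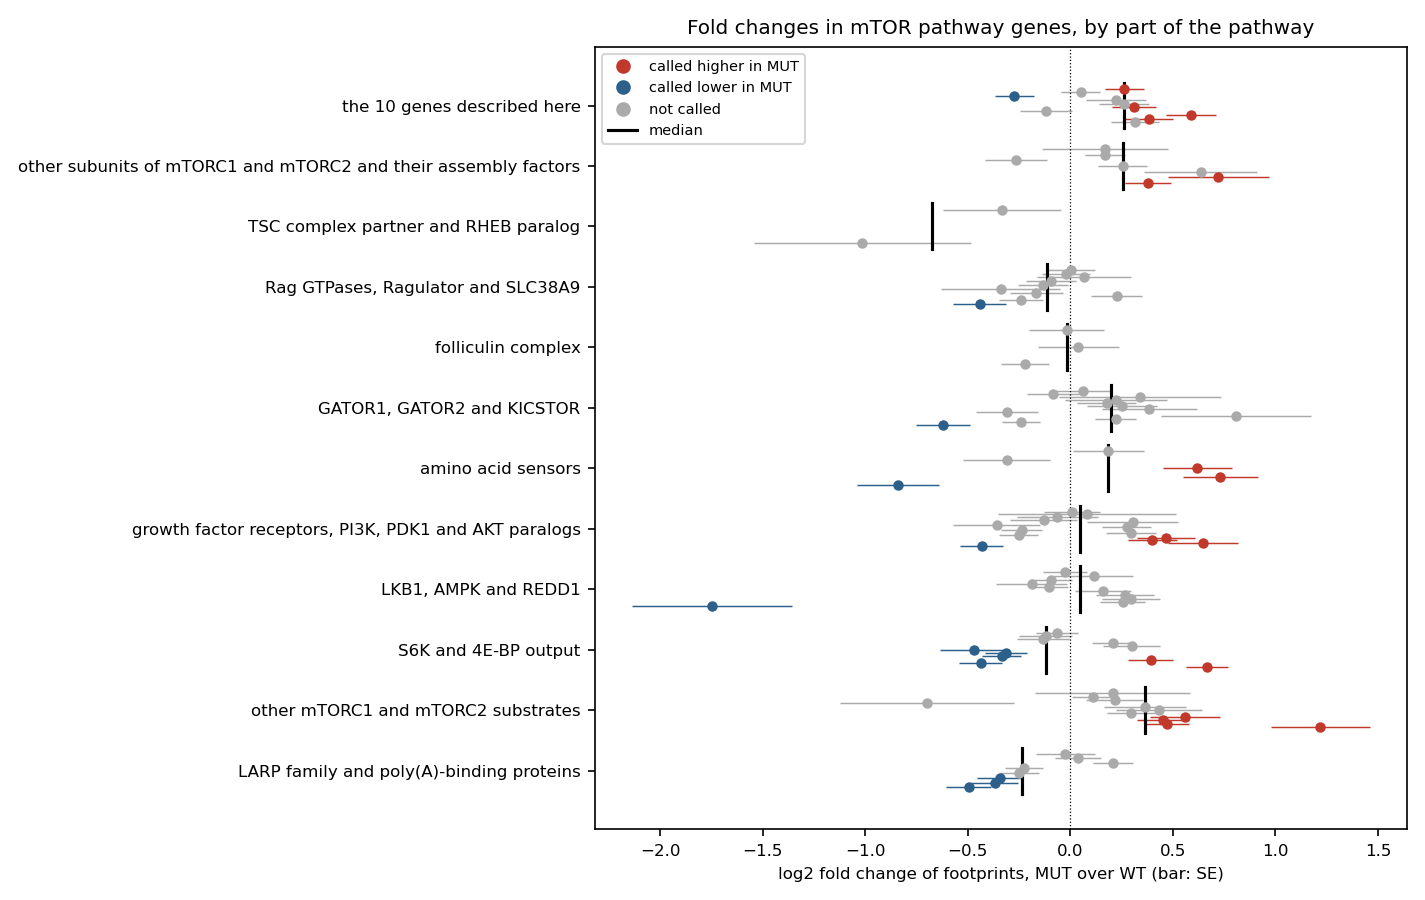
Log2 fold changes of footprints (MUT over WT, horizontal axis, bars SE) for the 10 genes and 11 lists of other pathway genes in rows, coloured by the edgeR call, with a black line at each median. The 10 genes have a median of 0.26 (0.123 with the density and span trend removed), SGK1 is the highest called pathway gene at 1.22 and PRKAA2 the lowest at -1.75.

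The nutrient-sensing arm upstream of mTORC1 was listed in parts, to be read against the 22.9% of all tested genes that were called. Of 10 genes of the Rag GTPases, Ragulator and the transporter SLC38A9, 1 fell: LAMTOR3, a lysosomal Ragulator subunit, 1.36-fold (edgeR adjusted p = 0.0156). Of 12 genes of GATOR1, GATOR2 and KICSTOR, 1 fell: WDR59, a GATOR2 subunit, with 41.4, 48.2 and 42.1 CPM in the MUT libraries, against 68.4 and 67.03 CPM in the WT libraries. It was 1.54-fold lower (0.0015) and was called in all 15 alternative fits, whereas LAMTOR3 lost its call without WT replicate 1 (0.0982), WT replicate 2 (0.0989) or MUT replicate 1 (0.0852), or with DESeq2 (0.0832). The 3 folliculin complex genes did not pass (0 also at an unadjusted p under 0.05), and FNIP1 had the lowest p, with a log2 fold change of -0.22. Nor did TBC1D7, a TSC complex subunit, or RHEBL1, the RHEB paralog, which had 1.91, 1.84 and 2.31 CPM in the MUT libraries, against 4 and 4.25 CPM in the WT libraries (log2 fold change -1.02, SE 0.529, adjusted p = 0.170).

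The sestrins, stress-induced proteins that restrain mTORC1 through GATOR2, moved in both directions. SESN2, also a leucine sensor, had 33.4, 32.9 and 29.5 CPM in the MUT libraries, against 19.5 and 18.96 CPM in the WT libraries, 1.66-fold higher (edgeR adjusted p = 0.00591). SESN1 was 1.54-fold higher (0.00995), and SESN3 was 1.79-fold lower (0.00413). No libraries of the groups overlapped for these 3 genes, as was so for 50.7% of all tested genes. The sestrins belong to a list of amino acid sensors with 5 tested genes, of which the other 2 did not pass. Over all tested genes 22.9% were called. Single libraries ended each call: SESN1 without WT replicate 1 (0.127), and SESN2 (0.0736) and SESN3 (0.0778) without WT replicate 2, SESN3 also with thinned libraries (0.0703). DESeq2 ended the calls on SESN1 (0.0643) and SESN2 (0.0524).

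The growth factor arm was mixed as well. Of 14 tested genes of receptors, PI3K, PDK1 and AKT paralogs, 3 rose and 1 fell (28.6% called, against 22.9% of all tested genes). Their median log2 fold change was 0.0453. IRS2, an adaptor of the insulin receptor, was 1.57-fold higher (edgeR adjusted p = 0.00854), and the PI3K regulatory subunits PIK3R1 and PIK3R2 were 1.38-fold and 1.32-fold higher. The catalytic subunit PIK3CA was 1.35-fold lower, with 81.4, 86.9 and 87.5 CPM in the MUT libraries, against 122 and 109.5 CPM in the WT libraries (0.00488). PIK3CA and these regulatory subunits were thus called in opposite directions. Without WT replicate 1 the calls on IRS2 (0.0913), PIK3CA (0.0621) and PIK3R1 (0.0507) ended. PIK3R1 (0.190) and PIK3R2 (0.275) lost theirs without WT replicate 2, PIK3R2 also without MUT replicate 1 (0.0624) and PIK3R1 also without MUT replicate 3 (0.0531). With the trend removed PIK3R2 was at 0.18 (0.315), and with thinned libraries PIK3R1 was at 0.0648. DESeq2 ended the calls on IRS2 (0.0643), PIK3R1 (0.116) and PIK3R2, at a log2 fold change of 0.40. The energy-sensing genes are to be read against the 12.9% of all tested genes that were called lower. On the energy-sensing side, 1 of 10 genes fell: PRKAA2, a catalytic subunit of AMPK, at 2.54, 2.63 and 3.85 CPM in the MUT libraries, against 10.5 and 10.1 CPM in the WT libraries (0.00246, and 0.053 without WT replicate 2).

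Downstream of mTORC1, 11 tested genes of the S6 kinase and 4E-BP branches included 2 that rose and 4 that fell. Over all tested genes, 10.0% were called higher and 12.9% lower. EIF4G1, which bridges the cap-binding protein and the ribosome, had 234, 273 and 245 CPM in the MUT libraries, against 169.8 and 148.1 CPM in the WT libraries. It was 1.59-fold higher (edgeR adjusted p = 6.58e-05) and was called in all 15 alternative fits. POLDIP3, the S6 kinase substrate SKAR, was 1.31-fold higher. EIF4EBP2, a repressor that mTORC1 switches off, was 1.26-fold lower, and EIF4B, a helicase cofactor phosphorylated by S6 kinase whose mRNA is of the TOP kind, was 1.35-fold lower. RPS6, the ribosomal protein that gives S6 kinase its name, and the helicase inhibitor PDCD4 also fell, with log2 fold changes of -0.31 and -0.47, and were named after their values were seen. The libraries of the groups overlapped for PDCD4. POLDIP3 (0.115), EIF4B (0.101) and EIF4EBP2 (0.0851) lost their calls without WT replicate 1. POLDIP3 (0.0748) and EIF4EBP2 (0.0779) also did without MUT replicate 1, and EIF4EBP2 without MUT replicate 2 (0.0535). DESeq2 ended that on POLDIP3 (0.0589).

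Of 11 other substrates and targets of the complexes, 4 rose, where 10.0% of all tested genes were called higher. Their median log2 fold change was 0.37, against 0.0024 over all tested genes. SGK1, a kinase activated by mTORC2, had 21.6, 24.5 and 20.01 CPM in the MUT libraries, against 8.49 and 10.1 CPM in the WT libraries. It was 2.33-fold higher (edgeR adjusted p = 0.000949) and was called in all 15 alternative fits. NDRG1, a substrate of SGK1, was 1.39-fold higher, PRKCA, a protein kinase C whose stability depends on mTORC2, 1.37-fold higher, and TFE3, a lysosomal transcription factor held in the cytoplasm by mTORC1, 1.47-fold higher. NDRG1 (0.073), PRKCA (0.111) and TFE3 (0.107) lost their calls without WT replicate 2, PRKCA (0.0532) and TFE3 (0.107) without WT replicate 1, and TFE3 without MUT replicate 1 (0.0879). With the trend removed TFE3 was at a log2 fold change of 0.40 and did not pass. With DESeq2 PRKCA (0.0873) and TFE3 (0.118) did not pass either.

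**Figure D4:**
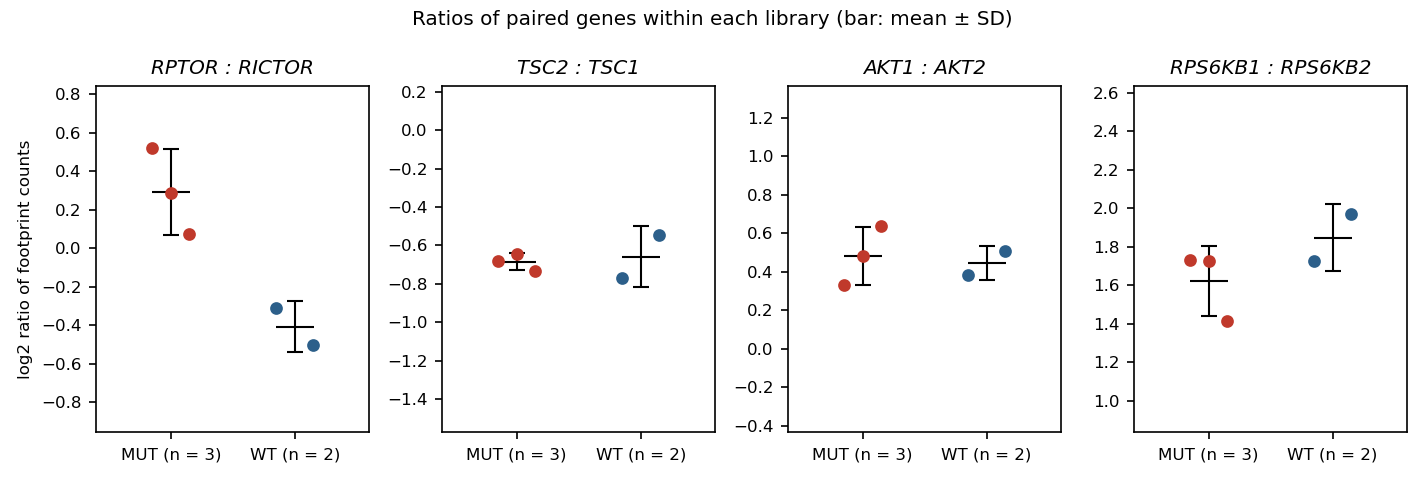
Log2 ratio of footprint counts within each library (vertical axes of equal length but different position) for 4 pairs of genes, MUT in red and WT in blue, with the mean and SD as black bars. Only the ratio of RPTOR to RICTOR separates the groups, at 0.07 or more in MUT and -0.31 or less in WT.

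The genes whose pattern over the 5 libraries was most like that of LARP1, among 5873 others with a mean of at least 50 CPM, were MPRIP, RNF216 and PIP5K1A. Likeness was the root mean square difference of log2 CPM centred on each gene's mean, at 0.0144, 0.0189 and 0.0193, against a median of 0.198. Of these, MPRIP was called (log2 fold change 0.28, edgeR adjusted p = 0.0334), but not without WT replicate 1 (0.109), WT replicate 2 (0.132), MUT replicate 1 (0.0925) or MUT replicate 2 (0.097), with DESeq2 (0.0996) or with the density and span trend removed (0.0736). For MTOR they were ITPR3, FLNA and EIF1AD, at 0.026, 0.0267 and 0.0304, against a median of 0.265. FLNA, for example, had 372, 416 and 312 CPM in the MUT libraries, against 264 and 319 CPM in the WT libraries, and shared with MTOR the high MUT replicate 2 and the low WT replicate 1. With 5 libraries, many genes can share such a pattern.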

How the data were processed

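The deposited values are raw counts of ribosome footprints per gene, whole numbers not normalized by the authors, in 3 MUT and 2 WT libraries. The submitters' processing notes name the build hg38 and, as tools, STAR 2.5.2b, cutadapt 4.6, DESeq2 1.42.0 and FastQC 0.12.1. Per the labels' protocols, extracts were digested with MNase, and fragments were taken from the single-ribosome fraction of a sucrose gradient and selected by size. MNase has a base preference, which affects which footprints are recovered. The counting tool, the annotation, the handling of multiple mapping and strand were not stated.

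The test was edgeR 4.0.16 under R 4.3.3 (filterByExpr with a minimum count of 10, TMM, quasi-likelihood F test, 3 residual degrees of freedom), over all 11991 genes, with Benjamini-Hochberg adjustment and a threshold of 0.05. Standard errors come from the F statistic. CPM are TMM-scaled. Ratios between genes used a prior count of 0.5 and an exact two-sided permutation test. Coding lengths were not used, so levels of different genes were not compared. The fit was also run on simulated counts drawn with the same dispersion for all genes, a simpler setting than these data. The outcome is not given here, and no result rests on it. Alternatives were other scalings, DESeq2 1.42.0, limma-voom 3.58.1, other count filters, thinning, a replicate block, removal of a per-library linear trend in gene density and span, and leaving out each library. Gene positions and start sequences come from RefSeq (GRCh38.p14), which matched 17077 of 17297 names by symbol.

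The members and lists were chosen with earlier results of these data known, and 1 listed item is not reported here. Named are the 10 genes, EIF6, of each list up to 4 called genes by lowest p (1 where none was called), the paralogs AKT2 and RPS6KB2, and the 3 genes most like LARP1 and MTOR. No library was a copy of another: chi-square per gene ran from 1.92 to 8.06 over the 10 pairs.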

Additional observations from a re-analysis of the deposited data

How the results depend on the processing

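Over 48 named genes and 15 alternatives, 586 of 717 log2 fold changes kept their direction and side of the threshold, 102 lost a call and 27 gained one. A fit that gave no adjusted p was counted as keeping its side, as happened for PRKAA2. PRKAA2 was present in 14 of the 15 alternatives and RHEBL1 in 13. The other 2 changed sign: TSC2 at -0.15 with the density and span trend removed, and RICTOR at 0.11 without WT replicate 2. The lowest value for RICTOR without single libraries was -0.29. Of the 10 genes, 1 was called higher with DESeq2 (RPTOR), 2 with libraries thinned to the smallest and 2 with the density and span trend removed, and 1 to 3 without single libraries, against 4. The number called lower was 0 with DESeq2, thinning, no count filter, library size only or upper-quartile scaling, and 0 without any single library, against 1 (also 1 at an unadjusted p under 0.05 in edgeR). Of the other pathway genes, 20 rose with library size only and 3 with DESeq2, against 13, and without single libraries 6 to 14 rose and 6 to 11 fell. Over all genes 1203 rose and 1544 fell, against 519 and 846 with DESeq2 and 509 to 1089 and 732 to 1339 without single libraries. Of all calls 43.8% were higher, against 62.8% when scaled by library size only and 56.3% by the upper quartile. The cause of these shifts was not tested. The difference in the ratio of TSC2 to TSC1 ran from -0.14 to 0.0857 without single libraries, and that of AKT1 to AKT2 from -0.0405 to 0.11.

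Replicate numbers are shared by 2 MUT and 2 WT libraries, and deviations from the group means correlated at 0.0793 and 0.148 over genes. Counting noise lowers such correlations, so they cannot show whether libraries with the same number were prepared together. With the replicate block 5 of the 10 genes rose and 1 fell, 18 other pathway genes rose and 18 fell, MTOR passed (0.41, adjusted p = 0.000496), and the difference in the ratio of AKT1 to AKT2 was -0.0405. Among the 10 genes TSC2 had the fewest counts, 76 in WT replicate 1, and the largest SE (0.146).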
